A study of Arabidopsis thaliana with 12 samples.

Results

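The probe sets described here are the 148 of 22746 on the Arabidopsis ATH1 array whose level was lower after each of 3 elicitors than in control roots. A probe set was taken when its control mean was at least 5 on the log2 scale and its chitin, cellobiose and oligogalacturonide (OG) means each lay at least 0.7 below it. That numeric rule found 161 probe sets. Of these, 13 were set aside by name: 9 nuclear genes of photosynthesis and carbon fixation such as RCA, PRK and PSAN, the sugar transporter genes SWEET13 and SWEET14, and AT5G38820 and AT3G58060. The array controls and plastid-encoded genes were not eligible. Members were thus chosen by their measured decreases from the control, so these are given as a description with no test.

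The arrays measured total RNA from roots of 7-day-old Col-0 seedlings, frozen after 3 hours with chitin oligomers, cellobiose, OGs or no elicitor. Each of the 4 groups held 3 biological replicates, 12 arrays in all. Seedlings grew on a nylon mesh that the roots passed through, which is how roots and shoots were parted, and each sample is a pool of many seedlings of this wild-type ecotype. No dose was stated for any elicitor.

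Chitin oligomers are fragments of the fungal cell wall, OGs are fragments of plant pectin, and cellobiose is a fragment of cellulose. Plant cells sense such fragments as signs of a microbe or of wall damage and turn on defence genes within minutes to hours, while many genes for growth and plastid function are turned down. Roots of seedlings on plates often receive light, and their plastids can then carry part of the photosynthetic machinery. Chlorophyll synthesis, thylakoid shape, photorespiration and plastid ribosomes, which several members serve, are encoded largely by nuclear genes whose proteins are imported into the plastid.

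Of the 148 members, 44 matched exactly 1 gene in the probe annotation. The other 104 were not listed in it and are named by probe set. Of all 22746 probe sets, 13513 matched exactly 1 gene and 8730 were not listed, so members were unlisted more often. Statements on gene roles cover only the 44 named members. There were 8 members with probe sets shared within a gene family and 1, for the extensin-like gene AT5G06630, with probes that may cross-hybridise. All values below are log2 intensities, and a difference of 1 on this scale is a 2-fold change. Bulk arrays cannot tell fewer cells of a type from less RNA per cell.

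Across the members the median difference from the control was -1.42 after chitin, -1.04 after cellobiose and -1.03 after OGs. These leave 37.4%, 48.7% and 49.0% of the control level. Over all probe sets the corresponding medians were -0.03, -0.0 and -0.01. The decrease reached at least 2-fold in 120 members after chitin, in 80 after cellobiose and in 81 after OGs. Of the 3 elicitors, chitin gave the largest decrease in 118 members, cellobiose in 17 and OGs in 13. All 9 elicitor arrays lay below all 3 control arrays for 105 members, against 2.99% of all probe sets, a contrast the rule itself used. The groups overlapped for the other 43. In 27 members at least 1 elicitor mean was under log2 5, a level taken here as near background, and in 19 all of them were. Where an elicitor's mean is under 5, the decrease for that elicitor is poorly measured and may be larger than the difference shows. It may also be smaller, since members were chosen by these differences and some, such as DFR and AT1G80130, rest on 1 or 2 high control arrays.

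The 44 named members and the 104 unlisted ones were similar in size of decrease. Medians were -1.23, -0.92 and -0.91 after chitin, cellobiose and OGs for the named genes. The unlisted probe sets had medians of -1.46, -1.07 and -1.08 in the same order.

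Members differed in how closely they followed the photosynthesis genes from array to array. For each probe set the deviations of its 12 values from the group means were correlated with the mean deviation of 13 nuclear photosynthesis genes that the rule names for exclusion, 9 of which met its numbers. The rule used group means only, so it did not use these deviations, but all probe sets share the same arrays. The 13 genes were also named with these arrays in view. The other probe sets were not matched to the members for spread among replicates, which was larger in members. The shares of r are therefore a description. Pearson's r was at least 0.7 for 90 of the 148 members (60.8%) and for 460 of the other 22585 probe sets (2.04%). Among the 14503 others with a control mean of at least 5 the share was 2.32%. The members' median r was 0.80, against -0.05 for the others, and it ranged from -0.68 to 0.99. There were 24 members with r below 0 and 34 between 0 and 0.7. The limit of 0.7 was chosen after the values were seen.

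**Figure D1:**
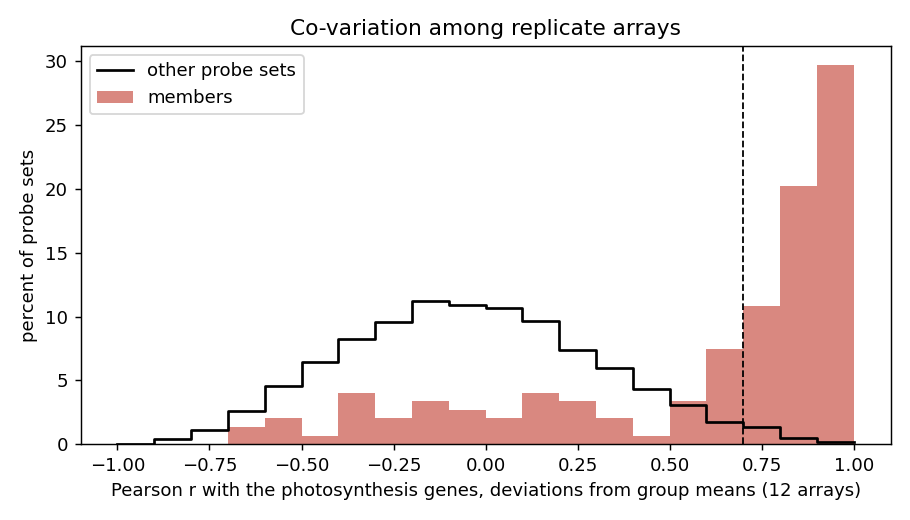
Distribution of Pearson's r, over 12 arrays, between each probe set's deviations from its group means and those of the 13 photosynthesis genes (x axis), as percent of probe sets (y axis), for the 148 members (bars) and the other 22585 probe sets (line). The dashed line marks 0.7, which 60.8% of the members and 2.04% of the others reached.

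Decreases from the control were much alike in both sets. The 90 members with r of at least 0.7 had medians of -1.41, -1.05 and -1.0 after chitin, cellobiose and OGs. The other 58 had -1.42, -1.01 and -1.08.

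The same arrays were low or high for most members. Control replicate 1 was the lowest control array in 120 members and control replicate 3 the highest in 113. Chitin replicate 2 was the lowest chitin array in 114, cellobiose replicate 1 the lowest cellobiose array in 107, and OGs replicate 2 the lowest OG array in 107. Replicates also spread more for members than for other probe sets. The median SD among the 3 control arrays was 0.45, against 0.14 for all probe sets with a control mean of at least 5, and after chitin it was 0.43 against 0.11.

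**Figure D2:**
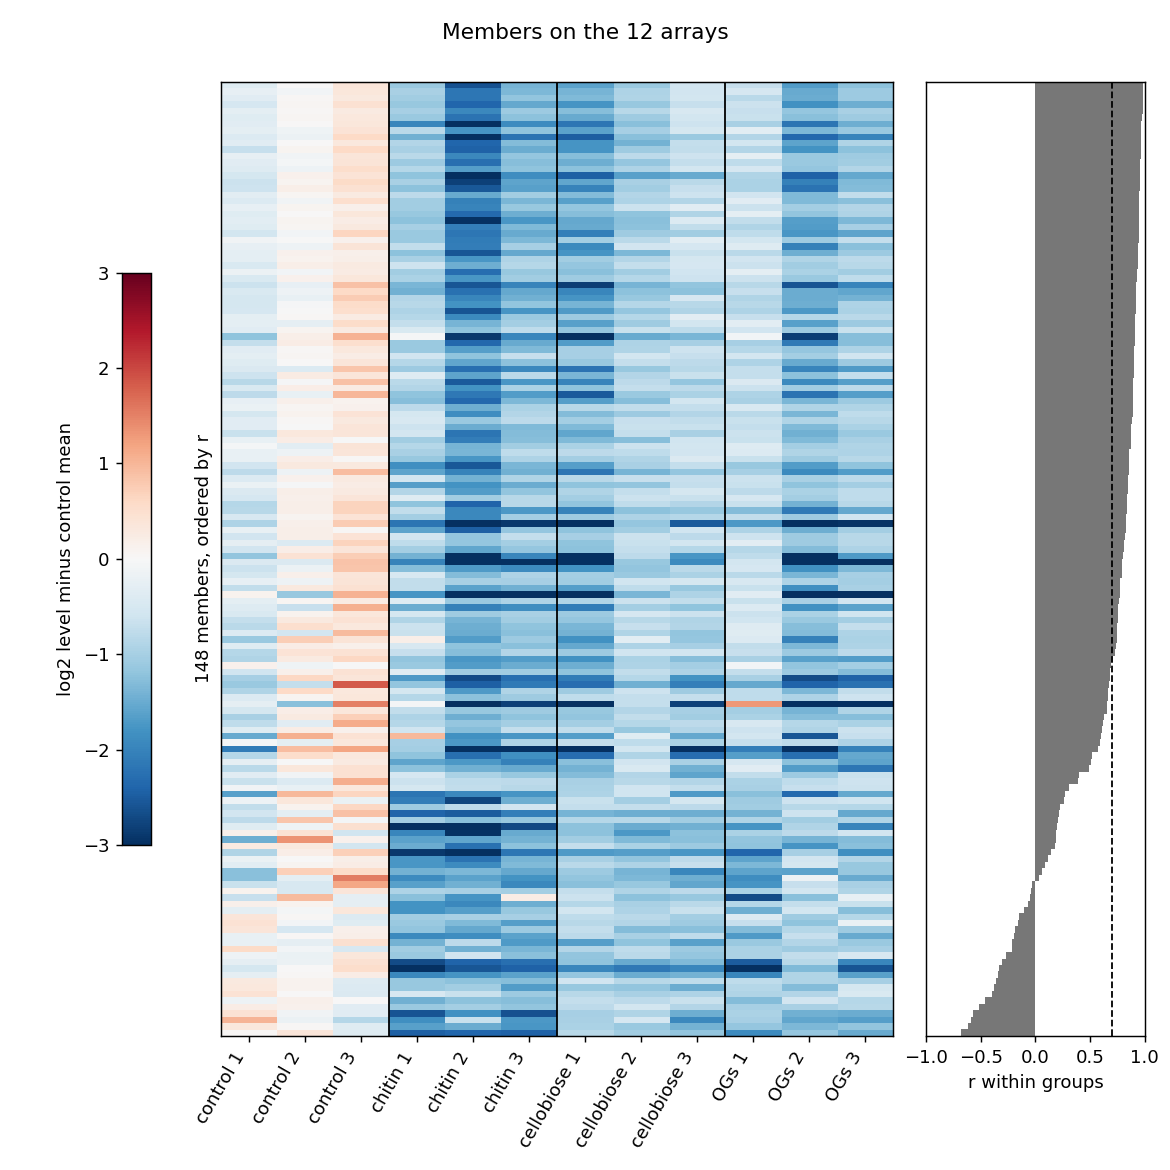
Log2 level minus the control mean (colour, limited to between -3 and 3) for the 148 members (rows, ordered by r) on the 12 arrays (columns), with r within groups as bars at the right and 0.7 dashed. In the upper rows chitin replicate 2, cellobiose replicate 1 and OGs replicate 2 are darkest within their groups; since rows are ordered by r, a shared array order at the top follows from the ordering.

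The arrays' other readings moved partly with the members. The mean of the 13 photosynthesis genes was 8.28 to 9.01 on control arrays, 6.33 to 7.40 after chitin, 6.95 to 7.81 after cellobiose and 7.09 to 7.92 after OGs, so no elicitor array reached the control range. The median of the 77 plastid-encoded probe sets was 8.22 to 8.70 on control arrays, 7.77 to 8.54 after chitin, 7.83 to 8.27 after cellobiose and 7.77 to 8.80 after OGs. The ranges overlap, but 2 of the 3 arrays of each elicitor lay below the lowest control array. The probe annotation matched none of the 32 shoot mesophyll markers listed for the check to a probe set. It leaves 8730 of the 22746 probe sets unlisted, so this check could not be made. The guard cell gene FMA was below log2 5. Of the root hair expansin genes, EXPA7 had means of 9.35 in the control and 9.42, 9.27 and 9.44 after chitin, cellobiose and OGs. EXPA18 had 9.55 in the control and 9.17, 9.16 and 9.12 after them. In the limma fit described below, EXPA18 was called lower than the control after chitin, beside 5.94% of all probe sets. Neither expansin gene was called after cellobiose or OGs. The 3′ minus 5′ difference of the GAPDH control probe sets was 0.73 to 0.83 on control arrays, 0.66 to 0.86 after chitin and 0.37 to 0.59 after cellobiose. After OGs it was 0.36 and 0.54 on replicates 1 and 2 and 1.46 on replicate 3. The same difference for the actin control probe sets was larger, at 3.35 to 3.75 on control arrays. It was 3.41 to 3.71 after chitin, 3.43 to 3.72 after cellobiose and 3.50 to 4.03 after OGs, with the 4.03 on replicate 3. The mean of the polyadenylated spike-in probe sets was 5.85 to 6.01 on control arrays, 5.63 to 5.72 after chitin, 5.66 to 5.76 after cellobiose and 5.64 to 5.97 after OGs, so the chitin and cellobiose arrays all lay below the controls. Array medians were 6.30 to 6.41. The part of shoot tissue, other cell types, RNA quality or labelling in the members' decreases was not tested.

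**Figure D3:**
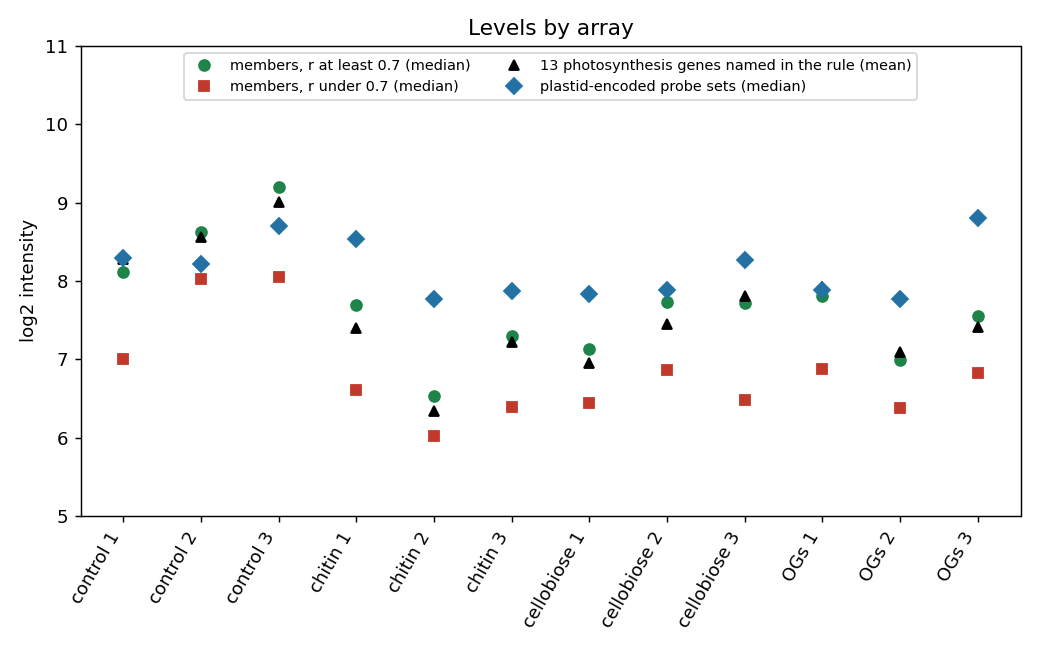
Log2 intensity (y axis) on each of the 12 arrays (x axis): median of the 90 members with r of at least 0.7, median of the other 58 members, mean of the 13 photosynthesis genes that the rule names, and median of the plastid-encoded probe sets. Members were divided by their r with these photosynthesis genes, so the likeness of those series within groups follows from that choice; every elicitor array is below every control array for the photosynthesis genes.

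There were 10 named members that serve thylakoids or chlorophyll. Their median difference from the control was -1.25 after chitin, -0.92 after cellobiose and -0.99 after OGs, and 9 of them had r of at least 0.7. LIL3:1 encodes a light-harvesting-like protein needed for chlorophyll and tocopherol synthesis. It stood at 5.97, 6.96 and 7.45 on the control arrays, 6.05, 4.87 and 5.06 after chitin, 4.79, 5.57 and 5.65 after cellobiose and 5.49, 4.68 and 5.27 after OGs. All arrays of cellobiose and OGs lay below the controls, while chitin replicate 1 just passed control replicate 1. PORB, the protochlorophyllide reductase of chlorophyll synthesis, stood at 6.90, 8.40 and 8.14 on the control arrays, 7.29, 6.12 and 6.92 after chitin, 6.75, 7.20 and 6.76 after cellobiose and 7.05, 6.46 and 7.08 after OGs. Control replicate 1 lay among the elicitor arrays, so the groups overlapped.

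AT4G01150 (CURT1A) and AT1G52220 (CURT1C) belong to the proteins that bend thylakoid membranes at grana margins. AT4G01150 stood at 9.50, 9.88 and 10.09 on the control arrays, 9.03, 8.30 and 8.78 after chitin, 8.53, 8.94 and 9.20 after cellobiose and 9.25, 8.49 and 9.08 after OGs. Every elicitor array was below every control array, and chitin replicate 2 was the lowest of all. AT1G52220 differed from the control by -1.25 after chitin, -0.72 after cellobiose and -0.83 after OGs. TROL, which anchors ferredoxin-NADP reductase at the thylakoid, differed by -1.06 after chitin, -0.76 after cellobiose and -0.76 after OGs.

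AT2G26500, a small subunit of the cytochrome b6f complex, stood at 9.21, 9.55 and 9.87 on the control arrays, 8.67, 7.17 and 8.25 after chitin, 7.78, 8.12 and 8.84 after cellobiose and 9.0, 7.95 and 8.64 after OGs. No elicitor array reached the control range, and the r of 0.97 shows how closely it tracked the photosynthesis genes. The thylakoid soluble phosphoprotein AT3G47070 differed by -1.43 after chitin, -1.13 after cellobiose and -1.26 after OGs. For AT1G74730, a protein of grana organisation, the differences were -1.15 after chitin, -0.89 after cellobiose and -0.99 after OGs. The lumen protein AT4G02530 and the chloroplast rhodanese-domain protein AT2G42220 completed the group. AT4G02530 differed by -1.36 after chitin, -0.84 after cellobiose and -0.98 after OGs, and its elicitor arrays were all below its controls. AT2G42220 had 2 elicitor arrays at the level of control replicate 1, at 5.32 after chitin and 5.37 after OGs against 5.31.

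**Figure D4:**
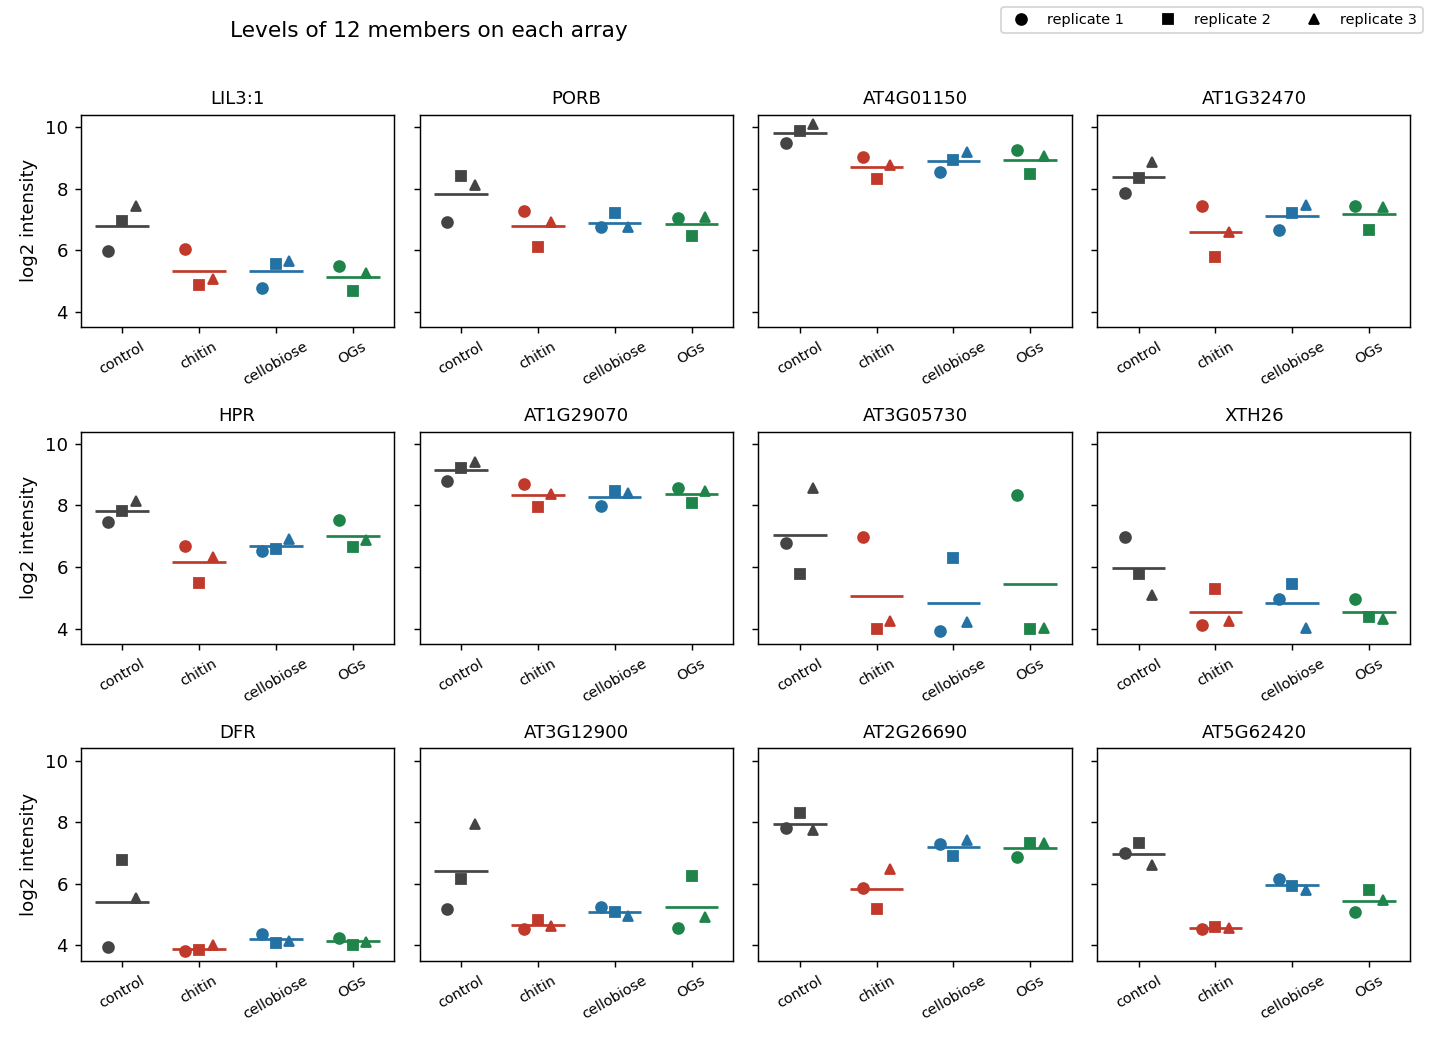
Log2 intensity (y axis) of 12 members on each array, by group (x axis): points are arrays, with the symbol giving the replicate number, and lines are group means. AT5G62420 is lowest on the 3 chitin arrays, AT3G05730 is split within groups, and DFR is near log2 4 on all elicitor arrays and on control replicate 1.

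Photorespiration, the salvage of the product made when Rubisco takes up oxygen, and carbon fixation gave 4 named members, all with r of at least 0.7. Their medians were -1.31 after chitin, -1.05 after cellobiose and -0.85 after OGs. AT1G32470, an H protein of mitochondrial glycine decarboxylase, stood at 7.87, 8.36 and 8.87 on the control arrays, 7.45, 5.77 and 6.60 after chitin, 6.67, 7.21 and 7.47 after cellobiose and 7.45, 6.65 and 7.41 after OGs. All elicitor arrays lay below the controls. HPR, the peroxisomal hydroxypyruvate reductase, stood at 7.45, 7.82 and 8.16 on the control arrays, 6.69, 5.49 and 6.34 after chitin, 6.52, 6.60 and 6.92 after cellobiose and 7.53, 6.64 and 6.88 after OGs. Its OGs replicate 1 was within the control range, and the chitin and cellobiose arrays were all below it. AT3G47650, a DnaJ-type zinc-finger protein that assists Rubisco assembly, differed by -0.93 after chitin, -0.97 after cellobiose and -0.89 after OGs. AT3G48420, a plastid phosphatase that removes a side product of Rubisco, was already close to background, with a control mean of 5.07 and every elicitor mean under 5.

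Plastid ribosomal proteins, which make the plastid-encoded proteins, gave 5 members: AT1G64510 (S6), AT4G17560 and AT5G47190 (both L19), AT1G29070 (L34) and AT4G01310 (L5). These had the smallest decreases of the role groups, with medians of -0.85, -0.79 and -0.76 after chitin, cellobiose and OGs. AT1G29070 stood at 8.80, 9.22 and 9.41 on the control arrays, 8.69, 7.94 and 8.38 after chitin, 7.98, 8.48 and 8.40 after cellobiose and 8.58, 8.09 and 8.47 after OGs. All 9 elicitor arrays were below the 3 controls, by a small margin for chitin replicate 1. AT1G64510 differed by -0.98 after chitin, -0.79 after cellobiose and -0.84 after OGs. AT4G17560 was the only one of the 5 with r under 0.7, at 0.61.

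The 6 named members with cell wall or secreted products had median differences of -1.59, -1.42 and -1.50. None had r of at least 0.7, but some came near it. Their r was 0.68 for AT4G16980, 0.65 for AT3G05730, 0.52 for AT2G10940, 0.40 for AT1G04800, -0.40 for AT5G06630 and -0.59 for XTH26. AT4G16980, of the arabinogalactan-protein family, stood at 6.44, 8.04 and 7.79 on the control arrays, 5.70, 4.75 and 5.16 after chitin, 5.32, 6.57 and 5.62 after cellobiose and 6.46, 4.74 and 5.0 after OGs. OGs replicate 1 was level with control replicate 1 and cellobiose replicate 2 passed it, while the other elicitor arrays were lower. AT3G05730, a defensin-like secreted peptide, stood at 6.77, 5.78 and 8.55 on the control arrays, 6.97, 3.99 and 4.24 after chitin, 3.93, 6.31 and 4.23 after cellobiose and 8.34, 3.98 and 4.01 after OGs. Chitin replicate 1, cellobiose replicate 2 and OGs replicate 1 lay in the control range and the other 6 elicitor arrays were near background. Its elicitor means, 5.06 after chitin, 4.82 after cellobiose and 5.44 after OGs, therefore lie between these levels. AT2G10940, a secreted protein of the lipid-transfer and protease-inhibitor family, stood at 6.68, 8.06 and 7.85 on the control arrays, 6.32, 5.28 and 5.69 after chitin, 5.24, 6.62 and 5.25 after cellobiose and 5.87, 5.28 and 6.0 after OGs. The elicitor arrays were all below the controls.

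XTH26, a xyloglucan endotransglucosylase of root growth, stood at 6.98, 5.78 and 5.10 on the control arrays, 4.11, 5.28 and 4.24 after chitin, 4.97, 5.46 and 4.03 after cellobiose and 4.96, 4.39 and 4.30 after OGs. Control replicate 3 fell among the elicitor arrays, and its r of -0.59 was negative. The extensin-like gene AT5G06630 differed by -0.75 after chitin, -0.91 after cellobiose and -0.74 after OGs, and the glycine-rich protein AT1G04800 by -0.87 after chitin, -1.25 after cellobiose and -0.84 after OGs. Elicitor and control arrays came close to each other without overlap, with OGs replicate 3 at 7.84 against the lowest control of 7.87 for AT5G06630.

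Metabolism, transport and nutrient genes gave 8 named members with medians of -1.71 after chitin, -1.04 after cellobiose and -1.09 after OGs, none with r of at least 0.7. AT5G62420, an aldo-keto reductase, stood at 7.01, 7.34 and 6.60 on the control arrays, 4.54, 4.61 and 4.57 after chitin, 6.14, 5.93 and 5.80 after cellobiose and 5.09, 5.81 and 5.47 after OGs. The chitin arrays were under log2 5 and below all others, and all elicitor arrays were below the controls. AT2G26690 encodes the nitrate and peptide transporter family member NPF6.2, and stood at 7.80, 8.29 and 7.75 on the control arrays, 5.87, 5.18 and 6.47 after chitin, 7.28, 6.91 and 7.41 after cellobiose and 6.88, 7.31 and 7.34 after OGs. It was lowest on the chitin arrays, with no overlap with the other groups.

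AT3G12900, scopoletin 8-hydroxylase, makes the coumarin fraxetin that roots release when iron is short. It stood at 5.18, 6.14 and 7.96 on the control arrays, 4.53, 4.81 and 4.64 after chitin, 5.23, 5.09 and 4.96 after cellobiose and 4.55, 6.26 and 4.91 after OGs. Control replicate 1 was below cellobiose replicate 1, and OGs replicate 2 passed 2 of the 3 control arrays. AT3G07720, a kelch-repeat protein, stood at 11.14, 11.54 and 11.66 on the control arrays, 9.71, 9.56 and 10.13 after chitin, 10.64, 10.52 and 10.77 after cellobiose and 10.09, 10.92 and 10.31 after OGs. The elicitor arrays were all below the controls. DFR, dihydroflavonol reductase of anthocyanin synthesis, stood at 3.95, 6.76 and 5.56 on the control arrays, 3.82, 3.86 and 4.01 after chitin, 4.38, 4.09 and 4.16 after cellobiose and 4.24, 4.02 and 4.13 after OGs. Only control replicates 2 and 3 were above log2 5, so its decrease rests on 2 control arrays.

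Among the remaining genes of this group, AT4G23680, of the major latex protein family, differed by -1.96 after chitin, -1.07 after cellobiose and -1.71 after OGs, and control replicate 1 overlapped the elicitor arrays. AT1G04770, induced by sulphur shortage in earlier work, differed by -0.99 after chitin, -1.06 after cellobiose and -0.72 after OGs. The kelch-repeat F-box gene AT3G27150 differed by -0.70 after chitin, -0.75 after cellobiose and -0.77 after OGs. Signalling gave 2 named members. The receptor-like kinase AT4G20450 differed by -1.11 after chitin, -0.73 after cellobiose and -0.93 after OGs, and the calmodulin-like AT2G41090 by -1.01 after chitin, -0.88 after cellobiose and -0.77 after OGs, with most elicitor means near or under log2 5.

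No role is given for 9 named members, and 4 of these had r of at least 0.7. AT1G73120 had the largest mean decrease among named members and stood at 8.45, 9.56 and 10.08 on the control arrays, 6.47, 6.25 and 7.19 after chitin, 7.67, 7.70 and 7.61 after cellobiose and 6.98, 8.35 and 7.53 after OGs. OGs replicate 2 was the highest elicitor array, just below control replicate 1. AT3G61930 stood at 9.10, 9.18 and 9.81 on the control arrays, 6.68, 6.97 and 7.10 after chitin, 8.15, 7.86 and 8.04 after cellobiose and 6.87, 8.54 and 7.40 after OGs. It showed the same order among the OG arrays and no overlap with the control. AT1G09310 stood at 8.04, 9.65 and 9.95 on the control arrays, 7.79, 6.20 and 7.25 after chitin, 6.16, 8.43 and 7.47 after cellobiose and 8.45, 5.21 and 7.51 after OGs. Cellobiose replicate 2 and OGs replicate 1 reached above control replicate 1, and OGs replicate 2 was the lowest array. AT5G38980 had a control mean of 5.90 and elicitor means all under 5, so the size of its decrease is uncertain.

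The probe sets whose levels over the 12 arrays followed AT1G73120 most closely were those of AT3G07720 (Pearson's r = 0.974), AT3G61930 (0.951), AT3G20230 (0.948), AT3G58060 (0.942) and AT2G34620 (0.933). These correlations include the differences between groups and share all arrays. AT3G20230 and AT2G34620 were lower than the control by less than 0.7 after each elicitor and are not members. AT3G58060 met the numbers and is left out by name.

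The unlisted members held the largest mean decreases of the set. Probe set 246596_at stood at 8.65, 8.66 and 9.93 on the control arrays, 7.07, 5.02 and 5.37 after chitin, 4.50, 7.94 and 7.17 after cellobiose and 8.54, 4.21 and 5.85 after OGs. Chitin replicate 1, cellobiose replicate 2 and OGs replicate 1 were high within their groups, and OGs replicate 1 came close to the lowest control. Probe set 259161_at stood at 8.68, 7.45 and 9.61 on the control arrays, 6.80, 5.28 and 5.45 after chitin, 4.39, 7.21 and 7.66 after cellobiose and 8.24, 4.05 and 5.21 after OGs. OGs replicate 1 and cellobiose replicate 3 passed the lowest control array. Probe set 259892_at stood at 8.24, 9.32 and 9.92 on the control arrays, 6.98, 5.02 and 6.26 after chitin, 5.50, 8.01 and 6.64 after cellobiose and 7.44, 5.58 and 6.22 after OGs. Its elicitor arrays were all below its controls. 246004_at stood at 7.0, 10.03 and 10.27 on the control arrays, 8.09, 5.33 and 5.72 after chitin, 5.50, 8.55 and 5.54 after cellobiose and 7.03, 5.10 and 7.06 after OGs. Control replicate 1 overlapped the elicitor arrays.

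Strongly expressed members included 264474_s_at, 255997_s_at, 255886_at, 267457_at and 256309_at beside AT3G07720. The r of 264474_s_at was 0.94 and that of 255886_at 0.99. For 267457_at it was 0.18, and its values were 11.14, 11.17 and 10.33 on the control arrays, 9.39, 8.66 and 9.64 after chitin, 10.18, 9.94 and 9.79 after cellobiose and 9.66, 9.11 and 9.63 after OGs. All elicitor arrays were below the controls.

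Differences between the elicitors were tested, since the rule compared each elicitor with the control only, although the same arrays enter. Chitin and cellobiose, a fungal wall fragment and a plant wall fragment, separated 11 members (7.43%), against 5.45% of all probe sets called in either direction. All 11 were lower after chitin, a direction called for 2.51% of all probe sets. Calls are those of limma at a Benjamini-Hochberg adjusted p under 0.05 over all 22746 probe sets. An unadjusted limma p under 0.05 was reached by 31 of the 148 members, beside 4267 of all 22746 probe sets. Of all members, 122 were lower after chitin than after cellobiose and 26 higher, with a median difference of -0.32 against -0.03 over all probe sets. Leaving out chitin replicate 2 left 5 calls, leaving out cellobiose replicate 1 or 2 left 7, and leaving out cellobiose replicate 3 left 4. A fit of these 2 groups alone gave 20.

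Chitin minus cellobiose was -1.39 ± 0.17 (SE) log2 units for AT5G62420 (limma, adjusted p = 0.00077). Since its chitin arrays were near background, the size is uncertain, and setting values under 5 to 5 leaves a smaller difference of -0.96. For AT2G26690 it was -1.36 ± 0.26 (SE) (limma, adjusted p = 0.0127), 2.56-fold lower after chitin. For AT3G07720 it was -0.84 ± 0.19 (SE) log2 units (limma, adjusted p = 0.0279). All 3 chitin arrays were below all 3 cellobiose arrays for each of these genes. The call for AT5G62420 held under every alternative tried. That for AT2G26690 was lost without cellobiose replicate 1 or 3 (limma, adjusted p = 0.0639 and 0.063). That for AT3G07720 was lost without chitin replicate 1 or 2 or any 1 of the cellobiose replicates (limma, adjusted p from 0.0527 to 0.134).

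The other 8 calls were unlisted probe sets. Probe set 250832_at differed by -1.73 ± 0.30 (SE) log2 units (limma, adjusted p = 0.00638), and stood at 9.42, 9.66 and 10.26 on the control arrays, 6.69, 6.23 and 7.07 after chitin, 8.55, 8.30 and 8.34 after cellobiose and 8.02, 8.87 and 7.80 after OGs. 247871_at differed by -1.22 ± 0.20 (SE) (limma, adjusted p = 0.00531) and 254534_at by -0.85 ± 0.14 (SE) (limma, adjusted p = 0.00488). The chitin arrays were the lowest of all 12 for these probe sets. The remaining 5 were 252130_at, 252502_at, 256309_at, 263876_at and 257689_at, the last of which had means under log2 5 after both elicitors. Each of these 5 calls was lost without at least 1 of the chitin or cellobiose arrays. Those for 256309_at and 263876_at were also lost in a fit without the replicate number (limma, adjusted p = 0.0691 and 0.0725). Both were lost too under quantile normalization (limma, adjusted p = 0.0584 and 0.0682) and median centring (limma, adjusted p = 0.0659 and 0.0714). Quantile normalization also lost 252130_at (limma, adjusted p = 0.0601), and a fit of the 2 groups alone lost 256309_at (limma, adjusted p = 0.103). The calls for 250832_at, 247871_at and 254534_at held under every alternative tried. Of the 11 called members, 9 had r under 0.7. The median difference was alike in both sets, at -0.33 for the 90 members with r of at least 0.7 and -0.32 for the other 58. Calls were made for 2 of the 90 and 9 of the 58, beside 2.51% of all probe sets called lower. For chitin against OGs they were made for 1 and 5, beside 1.42%. The median SE was larger for the 90, at 0.28 against 0.25. Whether this accounts for their fewer calls was not tested.

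Chitin against OGs called 6 members (4.05%), beside 3.57% of all probe sets, and all 6 were lower after chitin, beside 1.42% of all probe sets. An unadjusted limma p under 0.05 was reached by 31 of the 148 members, beside 3672 of all 22746 probe sets. Of all members, 129 were lower after chitin than after OGs and 19 higher. The median difference was -0.29 against -0.02 over all probe sets. This comparison uses the same chitin arrays as the one with cellobiose. Chitin minus OGs was -1.33 ± 0.26 (SE) log2 units for AT2G26690 (limma, adjusted p = 0.0181). For AT5G62420 it was -0.89 ± 0.17 (SE) (limma, adjusted p = 0.0151), or -0.46 with values under 5 set to 5. The others were 254534_at at -0.98 (limma, adjusted p = 0.0026), 250832_at, 247871_at and 252130_at. Leaving out chitin replicate 2 left 2 calls and leaving out OGs replicate 2 left 3. The calls for AT2G26690 and AT5G62420 were each lost without chitin replicate 1 or 2 or OGs replicate 2 or 3 (limma, adjusted p from 0.0504 to 0.102 and from 0.0564 to 0.0909). The call for 254534_at held under every alternative tried.

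**Figure D5:**
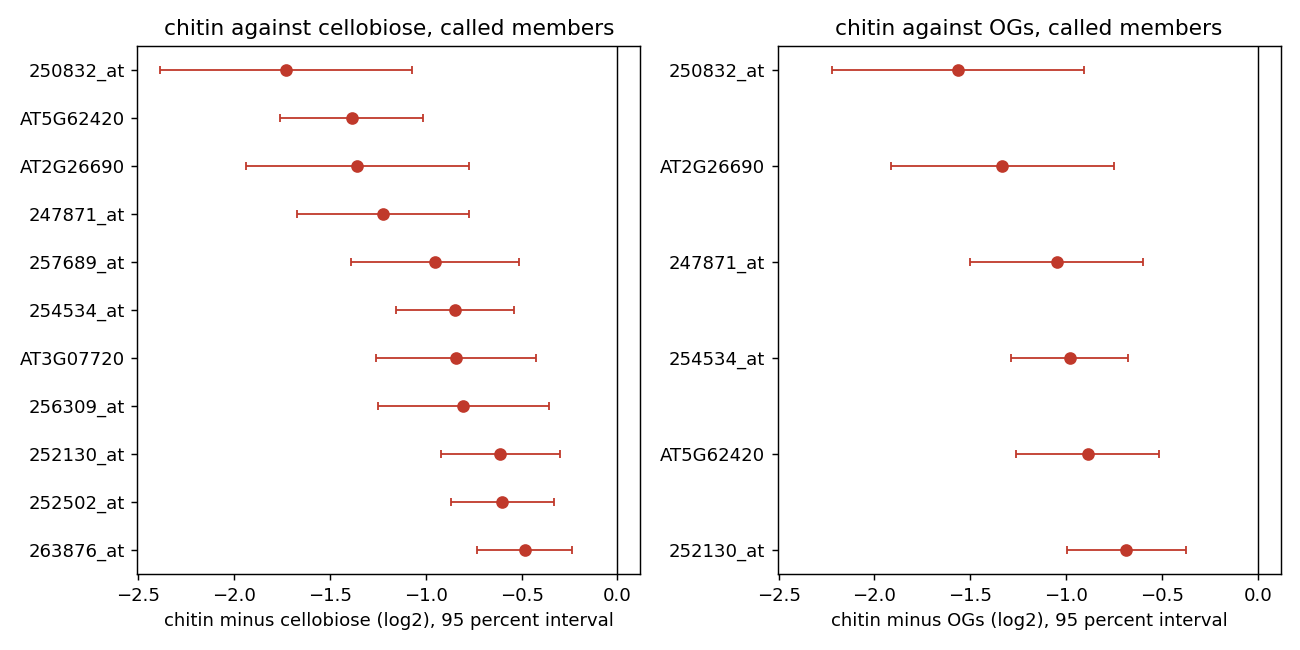
Difference in log2 level (x axis), chitin minus cellobiose (left) and chitin minus OGs (right), for the members that limma called in each comparison; points are estimates and bars 95% intervals. All 11 and all 6 lie below 0, and both panels use the same chitin arrays.

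OGs and cellobiose, both plant wall fragments, were not separated in any member by limma, beside 1.31% of all probe sets. An unadjusted limma p under 0.05 was reached by 2 of the 148 members, AT5G62420 and 257689_at, beside 2722 of all 22746 probe sets. The members' differences ran from -0.64 to 0.64 with a median of -0.03. The median 95% interval reached 0.60 log2 units to either side of the estimate with 3 arrays a group. OGs minus cellobiose was -0.50 for AT5G62420 (95% interval -0.87 to -0.13, limma, adjusted p = 0.253).

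None of the named members of thylakoids, photorespiration or plastid ribosomes was called between chitin and cellobiose. LIL3:1 differed by -0.01 (95% interval -0.90 to 0.88) and PORB by -0.12 (-0.97 to 0.72). Other thylakoid members differed more, such as AT1G52220 with means of 5.50 after chitin and 6.03 after cellobiose. As a group the thylakoid members had medians of -1.25 and -0.92 against the control after these 2 elicitors. AT3G61930 differed by -1.10 (-1.78 to -0.42, limma, adjusted p = 0.0699) and AT1G73120 by -1.02 (-1.76 to -0.29, limma, adjusted p = 0.118). The members' standard errors were wide, with a median of 0.27 against 0.10 over all probe sets.

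Other genes of the members' pathways were looked up in lists of which 4 hold a member. The nuclear photosynthesis list had 19 measured genes, among them the members AT4G01150, AT1G52220 and TROL, and 13 of the other 16 are the genes the rule names, 9 of which met its numbers. Of those 16, limma called 13 lower and 1 higher after chitin, 3 lower after cellobiose and 3 lower after OGs, where 5.94%, 0.725% and 1.04% of all probe sets were called lower. Among all probe sets 5.09% were called higher after chitin. The list and the names to leave out were drawn up with these arrays in view, so the counts are no independent support. Leaving out 1 array moved the counts to between 8 and 13 for chitin, 1 and 5 for cellobiose and 0 and 7 for OGs.

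Flavonoid synthesis had 3 measured genes. Besides the member DFR, CHIL, a helper protein of the chalcone step, differed from the control by -0.60 ± 0.10 (SE) after chitin (limma, adjusted p = 0.00281) and UF3GT, a glycosyltransferase of anthocyanins, by -0.86 ± 0.20 (SE) (limma, adjusted p = 0.0191). UF3GT was also called after cellobiose and CHIL after OGs. Chlorophyll and carotenoid synthesis had 3 measured genes. CHLM, magnesium protoporphyrin methyltransferase, differed by -0.76 ± 0.16 (SE) after chitin (limma, adjusted p = 0.0116), CHLI2 was not called, and PORB is the member. In the list of nitrate, ammonium and peptide transport, AT2G26690 is the member and 1 of the other 11 genes was called. That was GTR1, a glucosinolate transporter of the same family, which differed by -0.74 ± 0.09 (SE) after chitin (limma, adjusted p = 0.000307) and by -0.48 ± 0.09 (SE) after cellobiose (limma, adjusted p = 0.02).

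By the gene order of the TAIR10.1 annotation the 44 named members lay on all 5 chromosomes, with 14, 6, 8, 11 and 5 on chromosomes 1 to 5. All named genes on the array were split as 25.7%, 16.4%, 20.4%, 14.6% and 22.4%. Pairs within 10 genes of each other were AT1G04770 and AT1G04800, 4 genes apart on chromosome 1, and on chromosome 4 TROL with AT4G01150, 10 apart, and AT4G17560 with LIL3:1, 6 apart. The members' median gene length was 1564.5 bases, against 2117 for all named genes.

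The threshold has near neighbours on both sides. Just inside it, by the smallest of their 3 decreases, were AT3G27150 at -0.70, 251226_at at -0.70 and AT2G36145 at -0.71. Just outside were AT5G58330, the plastid NADP-dependent malate dehydrogenase, at -0.70, LHCB4.1, also left out by name, at -0.69, and 262172_at at -0.69.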

How the data were processed

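Per the file headers, the deposited table holds 1 value per probe set and array; from the values it is on the log2 scale, and the series' design text names GCRMA, while the submitters' processing notes name Affymetrix Expression Console. Which of these made the values is not given in the sources used here. Values were used as deposited.

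The fit was limma 3.58.1 in R 4.3.3 (lmFit, eBayes) on 22746 probe sets and 12 arrays, with a term for each of the 4 groups and one for replicate number (a block), because the design text takes ratios within pairs, which leaves 6 residual degrees of freedom. Simulated data with known changes were used to test the script. Only the differences between elicitors were tested for members. The number of arrays limits the precision.

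Members, gene lists and roles were chosen with earlier results of these data known. Named members were the 24 with the largest mean decrease, those called between elicitors, those nearest the threshold, list members, and the 4 unlisted with the largest decrease and 6 with the highest control mean; other members named were chosen after their values were seen. A gene on a list took its probe set with the highest mean. Alternatives were normalization, block, filter, trend, groups fitted and arrays left out. The promoter motif search was not run.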

Additional observations from a re-analysis of the deposited data

How the results depend on the processing

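The set held 286 probe sets with a limit of 0.5 and 60 with a limit of 1.0, and between 120 and 256 with 1 array left out, the latter without control replicate 1; 75 members stayed in it whichever array was left out. Quantile normalization gave 141, median centring 149, and a control mean of at least 4 or 6 gave 148 and 130. Members called lower after chitin than after cellobiose were 20 with only those groups fitted and between 4 and 14 with an array left out; against OGs the range was 2 to 9, and for OGs against cellobiose 0 to 2. All probe sets called ranged from 625 to 1495, 456 to 1142 and 153 to 441. Under median centring the split was 846 higher and 316 lower, against 667 and 572, for chitin against cellobiose, and 186 and 146, against 129 and 170, for OGs against cellobiose; the cause was not tested. Same-numbered arrays did not consistently deviate together (correlations -0.23 to 0.25, 6 of 18 pairs over 0.1), which does not show that the numbers pair the samples; the block was kept because the design text takes ratios within sample pairs. With no replicate block, 9, 7 and 0 members and 1433, 961 and 372 probe sets were called, and 2 of the 11 calls of chitin against cellobiose, 256309_at and 263876_at, were lost. Over 17 results for called members, 306 recomputed values gave 248 on the same side of the threshold, 58 that lost the call and 0 reversed; 5 results kept it under every alternative. The count of members with r of at least 0.7 was 87 to 101 with an array left out, 100 after removing replicate means, and 101 at a limit of 0.6 and 74 at 0.8. Where an elicitor mean was under log2 5, the size of that decrease is uncertain.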
